A study of Homo sapiens with 12 samples.

Results

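Gene-end regions were the regions of H2A.Z or acetylated H2A.Z (H2A.Zac) that overlapped a 2-kb window centered on the last annotated base of a protein-coding gene and lay outside 2 kb to each side of the start of every annotated gene. They were picked by position alone, from the hg38 coordinates of the 6 deposited lists and the genes of GENCODE release 44. There were 2010 such regions among 158028, of which 758 were among the 63442 H2A.Z regions and 1252 among the 94586 H2A.Zac regions. The ChIP-seq was done in K562, a human chronic myeloid leukemia line whose labels give the cell type as lymphoblast. Both groups carried endogenous EP400 with a dTAG degron in both alleles, made in 1 clone, and both had been treated with 500 nM dTAGV-1 for 24 h to degrade that protein. The WT group expressed exogenous WT EP400 from the AAVS1 locus, and the ΔTRRAP group expressed EP400 without the SANT and HD domains, the part to which TRRAP attaches, from the same locus. Per the paper, each of these groups was 1 clone of its line, so a difference between the groups is also a difference between clones. Each group had 2 biological replicates of input, H2A.Z and H2A.Zac, 12 libraries in all.

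EP400 is the scaffold and motor of the TIP60 complex, which exchanges H2A for the variant H2A.Z in nucleosomes and acetylates histones, and TRRAP is the large subunit that docks on DNA-bound activators. H2A.Z is best known from the nucleosomes beside active TSSs and at enhancers, where its acetylation goes with open chromatin. The 3' end of a gene is set by cleavage and polyadenylation after a poly(A) signal, most often AAUAAA in the RNA, and the stretch around it can also hold enhancers or the end of a neighboring gene on the other strand.

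The authors merged the replicates and compared the lines once per mark, so each region carries a class and 1 score and no value per replicate. A region is called lost here when it was in the list higher in WT, gained when it was in the list higher in ΔTRRAP, and unchanged when it was in the common list. The lists do not state the direction, which was read from the order in which their names give the lines, WT first and ΔTRRAP second. No spread between replicates and no test across conditions could be had from such lists. Intervals given in parentheses beside shares are 95% confidence intervals by Wilson's method, which cover only counting error, and the main shares also have the range found on leaving out single chromosomes. Library depth is unknown here. The score, the authors' log10 likelihood ratio, was used to rank regions and as a stricter cutoff, and is no fold change.

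Ends from the 2 sets of 8 genes with the highest scores, described further on, are shown first, as the last 30 bases on the coding strand of hg38, with the poly(A) signal AATAAA or its variant ATTAAA in capitals where the stretch held one. Of the 15 ends read, 11 held a signal in these bases and those of ADAMTSL5, FIG4, ESR1 and MGP did not, and the ends shown are 8 with a signal and that of FIG4 without one. ZNF853, NEU4, CRYAA and KCNK15 were genes whose ends lost both marks, and RIMS4 ends on the opposite strand inside the last stretch of KCNK15. ASXL3, NKAIN2, AKR1D1 and FIG4 were genes whose ends gained both.
ZNF853, chr7:6624261-6624290, plus strand: cgaaaAATAAAttaaaatgcagaaatacaa
NEU4, chr2:241817384-241817413, plus strand: tcgaAATAAAggaatcgtgcttgtgtcggg
CRYAA, chr21:43172776-43172805, plus strand: caatcAATAAAcagcaggtgatacaagcaa
KCNK15, chr20:44752284-44752313, plus strand: ctgctcaataAATAAAtgcaggtgaccttg
RIMS4, chr20:44751808-44751837, minus strand: tgttgaaATTAAAgtttttggcttttctaa
ASXL3, chr18:33751166-33751195, plus strand: ctggagaaAATAAAgaaattaaacatgaaa
NKAIN2, chr6:124825611-124825640, plus strand: cattttaaaAATAAAtggaaaaatacttaa
AKR1D1, chr7:138118276-138118305, plus strand: aatAATAAAgtataatgatttgttgcatca
FIG4, chr6:109878069-109878098, plus strand: atccgactgggctggtgcacctaaataata
The signal was as common at gene ends with a region as at those without. AATAAA stood in the last 50 bases of 672 of the 1111 genes with a gene-end region, 60.5% (57.6 to 63.3%), and of 8915 of the 14705 genes whose ends lay over 2 kb from every TSS and had no region, 60.6% (59.8 to 61.4%). It was in 58.8% of the gene ends that lost H2A.Zac and in 59.6% of those that gained it. ATTAAA was in 12.5% of genes with a region and 13.5% of those without.

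The center of a gene-end region often lies outside any exon, and the following stretches show such DNA with some of the motifs that were counted in lost and gained regions. Each is the central 200 bp of an H2A.Zac region, a stretch with no annotated exon, read on the strand of the gene, and capitals mark CACGTG (the E-box bound by MYC and its relatives), AGATAA (bound by factors of the GATA family) and TGANTCA (the AP-1 motif, with N any base). MIOX, which encodes the first enzyme of myo-inositol breakdown, was chosen for an E-box in a lost region. AMBN, which encodes the enamel protein ameloblastin, and FRS3 were chosen for a GATA motif in a gained region, and HPSE2, which encodes a heparanase relative, for an AP-1 motif.
MIOX, lost, chr22:50491076-50491275, plus strand: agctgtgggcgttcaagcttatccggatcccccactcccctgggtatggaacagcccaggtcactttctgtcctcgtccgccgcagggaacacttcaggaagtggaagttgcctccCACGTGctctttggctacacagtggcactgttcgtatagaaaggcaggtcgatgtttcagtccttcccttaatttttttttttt
AMBN, gained, chr4:70608412-70608611, plus strand: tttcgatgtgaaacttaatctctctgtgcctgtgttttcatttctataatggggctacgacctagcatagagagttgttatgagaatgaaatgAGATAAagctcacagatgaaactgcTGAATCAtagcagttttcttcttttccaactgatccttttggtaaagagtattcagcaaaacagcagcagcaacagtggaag
FRS3, gained, chr6:41769239-41769438, minus strand: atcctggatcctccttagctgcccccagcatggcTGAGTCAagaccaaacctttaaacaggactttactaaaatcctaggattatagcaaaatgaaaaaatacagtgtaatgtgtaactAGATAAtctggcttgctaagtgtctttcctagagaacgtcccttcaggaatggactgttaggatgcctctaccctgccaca
HPSE2, gained, chr10:98460895-98461094, minus strand: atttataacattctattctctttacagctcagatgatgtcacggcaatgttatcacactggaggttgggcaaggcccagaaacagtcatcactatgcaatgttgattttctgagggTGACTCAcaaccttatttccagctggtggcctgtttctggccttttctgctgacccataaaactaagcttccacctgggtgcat

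Changed gene-end regions were mostly losses in ΔTRRAP, for both marks. Of the 758 H2A.Z regions at gene ends, 241 were lost (31.8%, against 19.8% of all H2A.Z regions), 62 were gained (8.18%, against 14.1%) and 455 were unchanged. Of the 1252 H2A.Zac regions, 455 were lost (36.3%, against 25.9% of all H2A.Zac regions), 254 were gained (20.3%, against 26.3%) and 543 were unchanged. Changed regions were thus 303 of 758 for H2A.Z (interval 36.5 to 43.5%) and 56.6% (53.9 to 59.4%) for H2A.Zac, against 34.0% and 52.1% over all regions.

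Gained regions thus made up 20.5% (16.3 to 25.4%) of the changed H2A.Z regions at gene ends, between 19.1% and 23.6% with any 1 chromosome left out. Over all H2A.Z regions the share was 41.6%, at TSSs 55.6%, in gene bodies between 42.6 and 45.3% (2263 of 5146) and in intergenic regions 30.4% (29.4 to 31.3%). Gene-body regions overlap a protein-coding gene, those called intergenic do not, and both lie outside the TSS and gene-end sets. For H2A.Zac the gene-end share was 35.8% (32.4 to 39.4%), between 34.0% and 37.4% with 1 chromosome left out. It was 50.4% over all H2A.Zac regions, 60.7% at TSSs, 52.8% in gene bodies and 38.5% (37.8 to 39.2%) in intergenic regions. For H2A.Z the interval at gene ends lay below those of all other sets, and for H2A.Zac it lay below those of gene bodies and TSSs and overlapped that of intergenic regions. When only changed regions with a score (log10 likelihood ratio) of 10 or more were kept, 10 of 31 H2A.Z regions were gained, 32.3% (18.6 to 49.9%), and 29.4% of 316 H2A.Zac regions. The other sets were not counted at this cutoff. That H2A.Z interval takes in the 30.4% of intergenic regions and the 41.6% of all regions found without it. The order of the sets among the highest scores was therefore not tested.

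**Figure D1:**
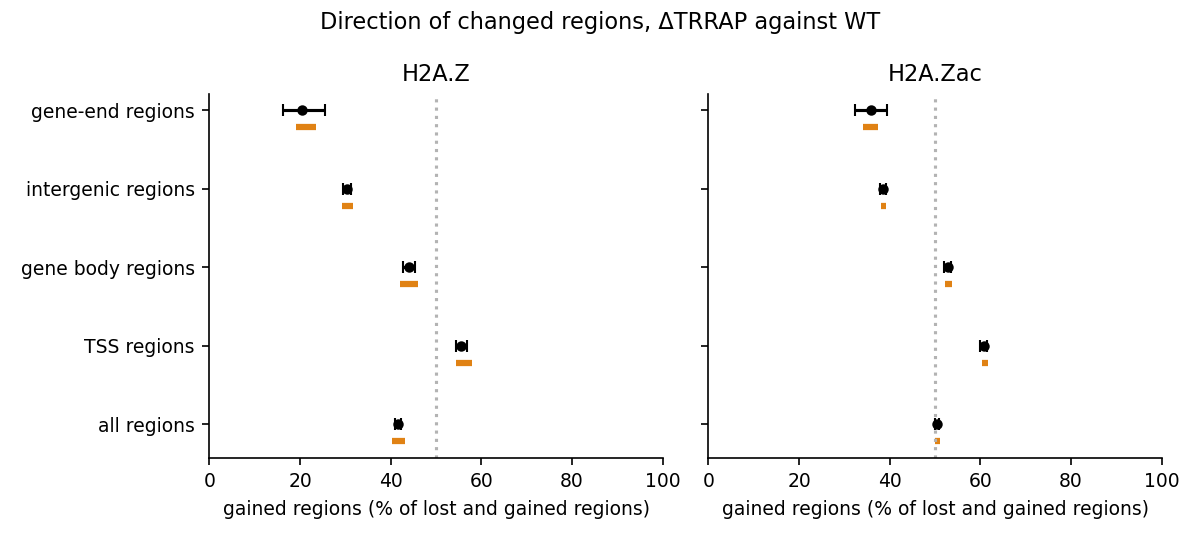
Gained regions as a percentage of lost and gained regions, for gene-end regions and the other sets. Points are shares with Wilson 95% intervals, orange lines are the range with each chromosome left out, and the gene-end shares, 20.5% for H2A.Z and 35.8% for H2A.Zac, lie left of the 50% line and of the TSS shares.

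The gained share differed between chromosomes. On chromosome 19, 43 of the 44 changed H2A.Z gene-end regions were lost, and the gained one lay at C19orf67. Over all H2A.Z regions of that chromosome the gained share was 15.6%. For H2A.Zac, 20 of the 83 changed gene-end regions of chromosome 19 were gained, 24.1% (16.2 to 34.3%), against 36.7% of all its changed H2A.Zac regions. On chromosome 20, 1 of 10 changed H2A.Z and 5 of 26 changed H2A.Zac gene-end regions were gained, against 8.82% and 25.6% of all changed regions there. Both chromosomes were uneven along their length. Of all changed H2A.Z regions, 40.7% were gained at 0 to 30 Mb of chromosome 20 and 1.55% at 30 to 65 Mb. On chromosome 19 the shares were 25.4% at 0 to 40 Mb and 4.97% at 40 to 59 Mb. In the 2 latter stretches 0 of 9 and 0 of 27 changed H2A.Z gene-end regions were gained. Without chromosomes 19 and 20 the gained share at gene ends was 24.1% (19.2 to 29.8%) for H2A.Z and 38.2% (34.4 to 42.1%) for H2A.Zac, still below the 59.5% and 62.4% of TSS regions on the same chromosomes. Gene bodies on these chromosomes had 46.9% and 54.3%. Intergenic regions had 32.1% (31.2 to 33.1%) for H2A.Z and 39.7% (39.0 to 40.5%) for H2A.Zac, the latter inside the gene-end interval. Chromosome 22 gave the most one-sided H2A.Zac value, with 17 of 18 changed gene-end regions lost, against a gained share of 48.4% over all changed H2A.Zac regions there. The lost regions of chromosome 22 lay, among others, at MIOX, at ARSA (arylsulfatase A), at SHANK3 (a postsynaptic scaffold) and at OSM (the cytokine oncostatin M), and the gained one lay at MAPK8IP2. Chromosome 1 held 45 gained among 94 changed H2A.Zac gene-end regions, 47.9%, close to the 48.1% of all its changed H2A.Zac regions. These chromosomes were picked after their values were seen.

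Direction went with base composition. The median GC content was 54.6% in lost and 46.5% in gained H2A.Z regions at gene ends, and 54.1% and 48.6% in those of H2A.Zac. Among H2A.Z gene-end regions under 40% GC, 9 of the 14 changed ones were gained (64.3%), and the share was 34.8% at 40 to 50% GC, 10.7% at 50 to 60% and 10.5% at 60% or more. For H2A.Zac the same 4 bands had gained shares of 65.6%, 44.1%, 28.5% and 25.3%. Gene bodies and intergenic regions also had their highest gained share in the band under 40% GC.

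Within each band from 40% GC up, the gained share at gene ends was below that in gene bodies, with intervals that overlapped those of intergenic regions. At 50 to 60% GC the H2A.Zac gained share was 28.5% (23.5 to 34.2%) at gene ends, 29.9% (28.6 to 31.2%) in intergenic regions and 42.3% (40.7 to 43.8%) in gene bodies. At 60% GC or more the values were 25.3%, 26.0% and 45.3%. For H2A.Z at 50 to 60% GC they were 10.7% (6.39 to 17.5%), 18.7% (17.3 to 20.2%) and 29.5% (27.3 to 31.8%). TSS regions of the same GC content had higher gained shares, 47.6% for H2A.Z and 57.7% for H2A.Zac at 50 to 60%. Base composition can itself affect the recovery of DNA in sequencing, and its part in these shares was not tested.

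**Figure D2:**
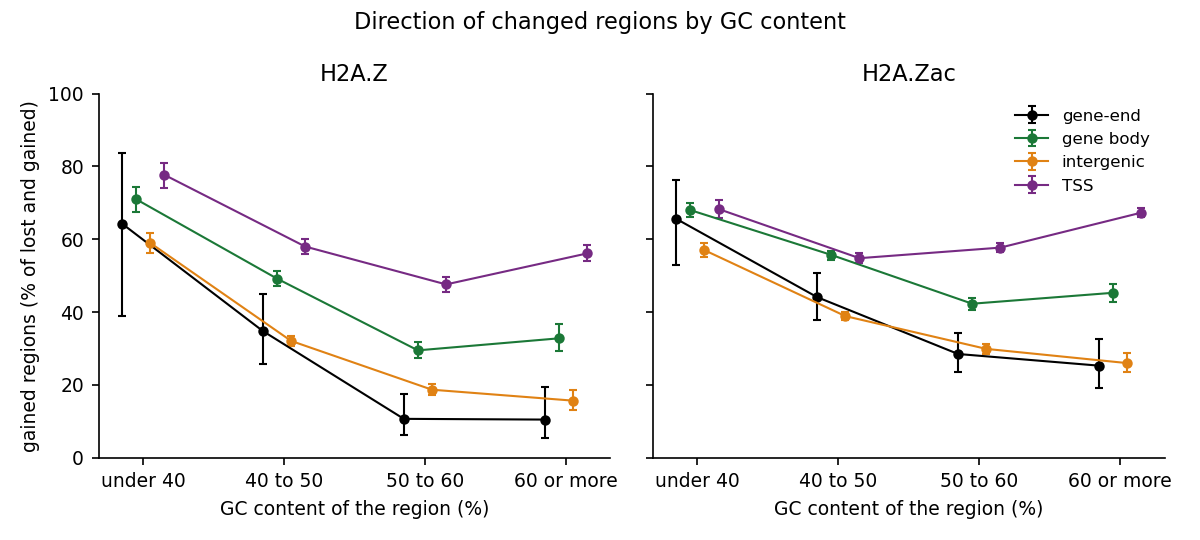
Gained regions as a percentage of lost and gained regions in 4 bands of GC content, by set, with Wilson 95% intervals. At gene ends the H2A.Zac share went from 65.6% under 40% GC to 25.3% at 60% or more, with intervals that overlap the intergenic ones in each band, and from 40% GC up the TSS shares lie higher.

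The 2010 regions stood at 1111 of the 20046 protein-coding genes, 5.54%, and 490 of these genes had a single region. H2A.Z regions were at 616 gene ends and H2A.Zac regions at 979. Both marks were found at 484, H2A.Zac alone at 495 and H2A.Z alone at 132. Regions within 1 kb of each other joined into 1044 loci, of which 481 held losses only, 243 gains only, 7 both and 313 neither. Genes with a gene-end region had a median length of 21.9 kb, against 33.3 kb for the 15774 genes whose ends lay over 2 kb from every TSS. An end of another coding gene on the opposite strand lay within 5 kb in 16.9% (14.8 to 19.2%) of the former and 20.3% of the latter.

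Regions lay on both sides of the last base. For H2A.Z, 315 ended before it, 153 spanned it and 290 began after it, and for H2A.Zac the numbers were 443, 334 and 475. A 3' UTR was overlapped by 50.4% of the H2A.Z and 53.9% of the H2A.Zac regions, and no exon of any gene by 39.2% and 36.6%. The gained share was alike on the 3 sides, with H2A.Zac at 36.8% before, 34.7% across and 35.7% after the end, and H2A.Z at 17.9% before and 23.3% after it, with overlapping intervals. By gene length the H2A.Z gained share was 16.5% (10.1 to 25.8%) under 10 kb, 14.4% (8.80 to 22.8%) at 10 to 30 kb, 24.7% (16.8 to 34.8%) at 30 to 100 kb and 36.1% (22.5 to 52.4%) over 100 kb, and the intervals of the shortest and the longest genes overlapped. The nearest TSS was a median of 7.16 kb from lost, 8.80 kb from gained and 8.19 kb from unchanged H2A.Z regions. Lost and gained H2A.Z regions had median widths of 547 and 605 bp, and those of H2A.Zac had 830 and 795 bp.

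At positions over 2 kb from every TSS, unchanged H2A.Zac regions covered 1.23% of 3' ends in the last 1 kb of the gene and 1.27% in the first 1 kb beyond, against 1.02% at 2 to 1 kb before the end and 1.59% at 4 to 5 kb beyond. Lost H2A.Zac regions covered 1.01% of the last 1 kb, 1.07% of the first 1 kb beyond and 1.62% at 4 to 5 kb beyond, and gained ones 0.590%, 0.584% and 0.677%. Lost H2A.Z regions covered 0.432% in the last 1 kb, against 0.348% at 2 to 1 kb before the end and 0.634% at 4 to 5 kb beyond. Unchanged H2A.Z regions covered 0.868%, 0.743% and 1.12% of the same stretches and were less frequent at the end itself. Gained H2A.Z regions covered 0.112%, 0.117% and 0.107%. Unchanged H2A.Z regions covered 151 of 15873 ends at 550 bases before the last base (0.951%), 103 of 15760 at 50 bases past it (0.654%) and 139 of 15729 at 550 bases past it (0.884%). The same positions were covered by lost H2A.Z regions in 0.485%, 0.355% and 0.413% of ends.

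**Figure D3:**
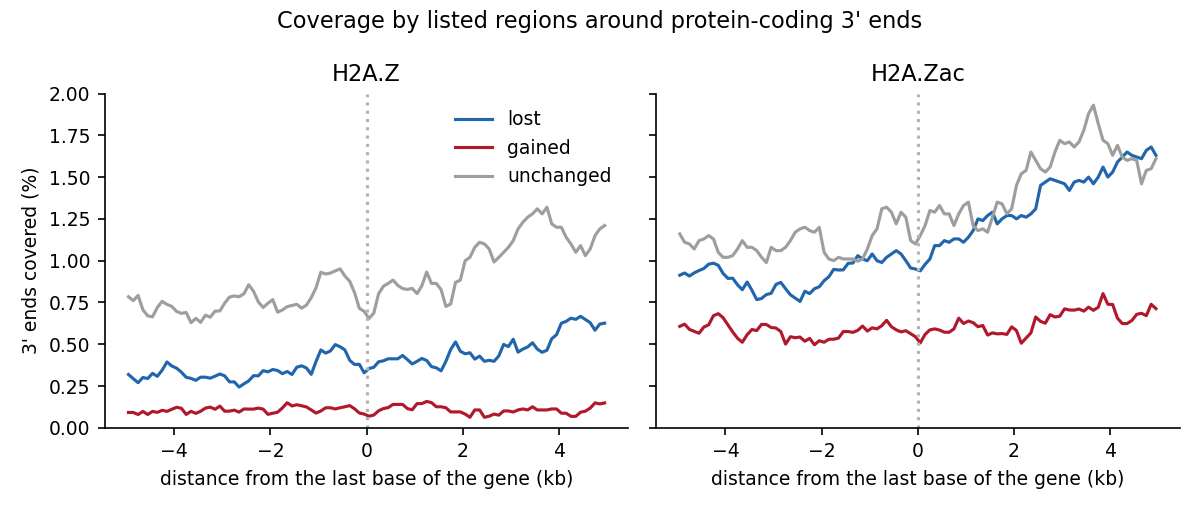
Percentage of protein-coding 3' ends covered by a listed region at each distance from the last base of the gene, every 100 bp, leaving out positions within 2 kb of a TSS. Unchanged H2A.Z falls from 0.951% at 550 bases before it to 0.654% at 50 bases past it.

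At gene ends, changed H2A.Z regions shared the direction of any changed H2A.Zac that covered 25% or more of them. H2A.Zac regions covered 25% or more of 621 of the 758 H2A.Z regions at gene ends, 81.9% (79.0 to 84.5%), against 91.6% of H2A.Z regions at TSSs, 80.6% in gene bodies and 74.4% in intergenic regions. Conversely, 50.9% of the H2A.Zac regions at gene ends lay on H2A.Z regions. Of the 241 lost H2A.Z regions, 177 lay on lost H2A.Zac (73.4%) and 0 on gained H2A.Zac. Of the 62 gained ones, 44 lay on gained H2A.Zac (71.0%) and 0 on lost. An unchanged H2A.Z region lay on lost H2A.Zac in 119 cases and on gained H2A.Zac in 86 of 455. All 221 changed H2A.Z regions at gene ends that lay on changed H2A.Zac had its direction, as had 4742 of 4750 at TSSs. Of the 455 lost H2A.Zac regions, 159 lay on lost and 123 on unchanged H2A.Z, and of the 254 gained ones, 49 lay on gained and 85 on unchanged H2A.Z. Counted by gene, 2 ends had lost H2A.Z with gained H2A.Zac and 1 the reverse. A different class can also begin within the same peak, and 130 of the 455 lost H2A.Zac regions touched an unchanged H2A.Zac region.

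The 8 gene ends that lost both marks with the highest H2A.Zac scores belonged to genes of at most 58.7 kb. They were chosen by class and score, so their direction is a description. ZNF853, a zinc finger gene, had a lost H2A.Z region of 1243 bp and a lost H2A.Zac region of 1128 bp across its end. Their positions were chr7:6623344-6624586 and chr7:6623513-6624640, and 947 bp of the former lay in the 3' UTR. At SCGB2A2, which encodes the mammary secretoglobin mammaglobin, the lost H2A.Zac region at chr11:62273262-62274751 began 102 bp past the last base and touched no exon. At NEU4, a sialidase gene, regions of 787 and 1032 bp spanned the end. At MIOX the H2A.Zac region began 40 bp before the last base and ran 1.09 kb past it, and at CRYAA, the gene of the lens protein alpha-A-crystallin, lost regions of 1019 and 1109 bp spanned the end. CRYAA and NEU4 also had a lost H2A.Zac region within 1 kb of their own TSS, whereas ZNF853, SCGB2A2 and MIOX had no region of either mark there. At CRYAA the lost one, of 323 bp, overlapped an unchanged one of 450 bp.

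RIMS4, which encodes a regulator of synaptic vesicle release, and KCNK15, a potassium channel gene, converge on chromosome 20, and their last exons overlap. The same pair of lost regions covered both ends, 1007 bp of H2A.Z at chr20:44751789-44752795 and 1358 bp of H2A.Zac at chr20:44751639-44752996. All bases of both regions were annotated as 3' UTR. A second pair of lost regions lay 0.754 and 0.580 kb beyond the end of RIMS4. In all, gene-end regions over the ends of opposite-strand genes numbered 22 for H2A.Z (7 lost, 1 gained, 14 unchanged) and 68 for H2A.Zac (22 lost, 13 gained, 33 unchanged). Over all gene-end regions 31.8% were lost and 8.18% gained for H2A.Z, and 36.3% and 20.3% for H2A.Zac. ADAMTSL5, a secreted glycoprotein gene, was the last of the 8, with lost regions of 452 and 654 bp at 0.964 and 0.800 kb past its end.

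The corresponding 8 gene ends that gained both marks belonged to genes of 4.99 to 1022 kb. SOX30, a transcription factor gene of the male germ line, had a gained H2A.Z region of 743 bp before its end and a gained H2A.Zac region of 1069 bp that began 945 bp past it, so the marks lay on different sides. FIG4, a phosphoinositide phosphatase gene of 187 kb, had the widest pair, 4306 bp of H2A.Z at chr6:109875763-109880068 and 4454 bp of H2A.Zac from the same first base, with unchanged regions at its TSS. ESR1, which encodes estrogen receptor alpha and spans 473 kb, had gained regions of 1645 and 1844 bp across its end, at chr6:152128659-152130303 and chr6:152128628-152130471, of which 961 and 992 bp lay in the 3' UTR. Neither mark was listed within 1 kb of the ESR1 TSS as annotated.

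ASXL3, a Polycomb-associated gene, gained 1352 bp of H2A.Z in its 3' UTR and 2539 bp of H2A.Zac across the end, 171 kb from the nearest TSS. Its own TSS had a lost H2A.Z region of 315 bp that overlapped an unchanged one of 405 bp. MGP, which encodes the calcification inhibitor matrix Gla protein, had gained regions of 958 and 982 bp past its end, and both marks were also gained at its TSS. NKAIN2, a membrane protein gene of 1022 kb, had gained regions of 718 and 811 bp that both began 183 bp past the end. MYOM2, the gene of the sarcomere protein myomesin 2, had gained regions of 1073 and 1226 bp just before its end. AKR1D1, which encodes the bile acid and steroid 5-beta-reductase, had gained regions of 522 and 828 bp past its end.

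**Figure D4:**
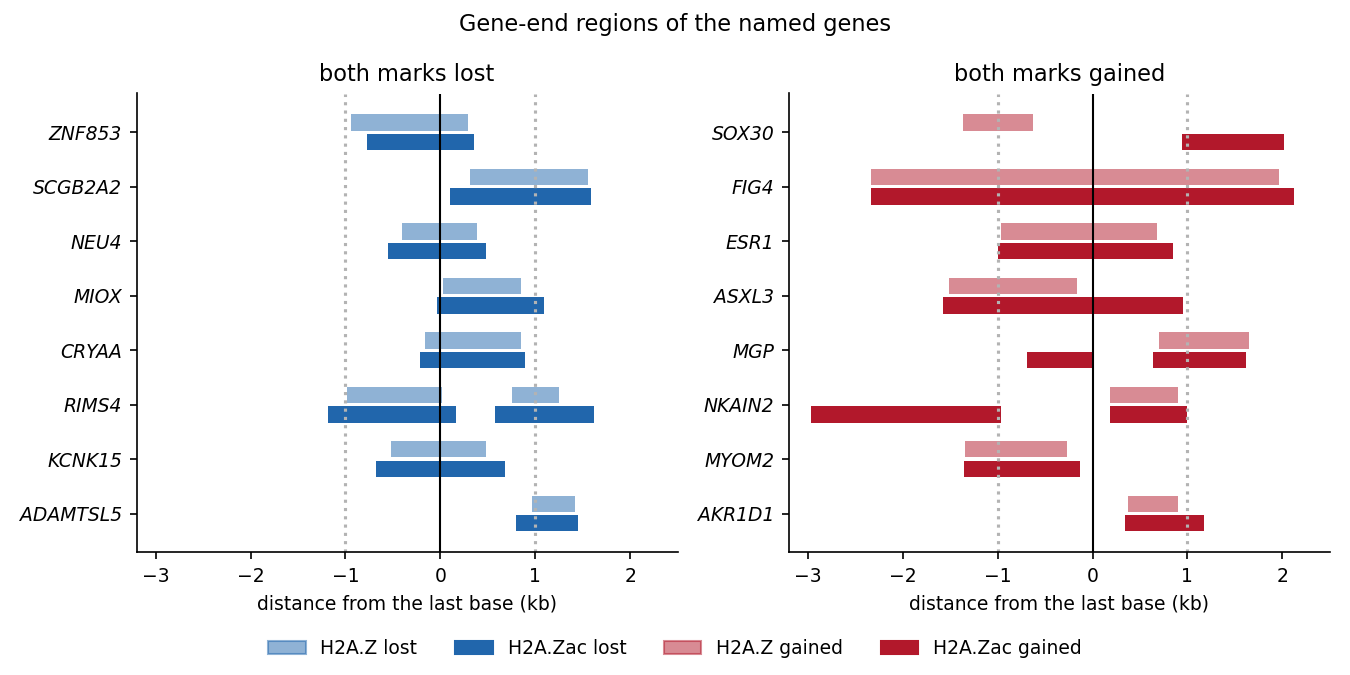
Position of H2A.Z (pale) and H2A.Zac (dark) regions relative to the last base of the 8 genes of each direction, with transcription from left to right and dotted lines at the 2-kb window. The marks overlap at 15 of the 16 ends, and at SOX30 they lie on opposite sides.

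Gene ends and the TSS of the same gene often went different ways for H2A.Zac. Ends and TSSs were classed by their changed regions, also where an unchanged region lay in the same window. Of the 293 genes with a changed H2A.Zac region at the end and changed regions of 1 direction within 1 kb of their own TSS, 170 had the same direction, 58.0% (52.3 to 63.5%), and 123 the opposite one. Own TSSs were gained in 49.2% of the genes that lost H2A.Zac at the end (90 of 183 with a changed TSS), in 70.0% of those that gained it (77 of 110), in 65.3% where the end was unchanged, and in 70.7% of all protein-coding genes with a changed TSS. For H2A.Z, 44 of 61 genes had the same direction, 72.1% (59.8 to 81.8%), with 28.8%, 77.8% and 52.7% gained TSSs for lost, gained and unchanged ends, against 66.8% of all genes. With scores of 10 or more only, 41 of 52 genes had the same H2A.Zac direction, 78.8%.

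**Figure D5:**
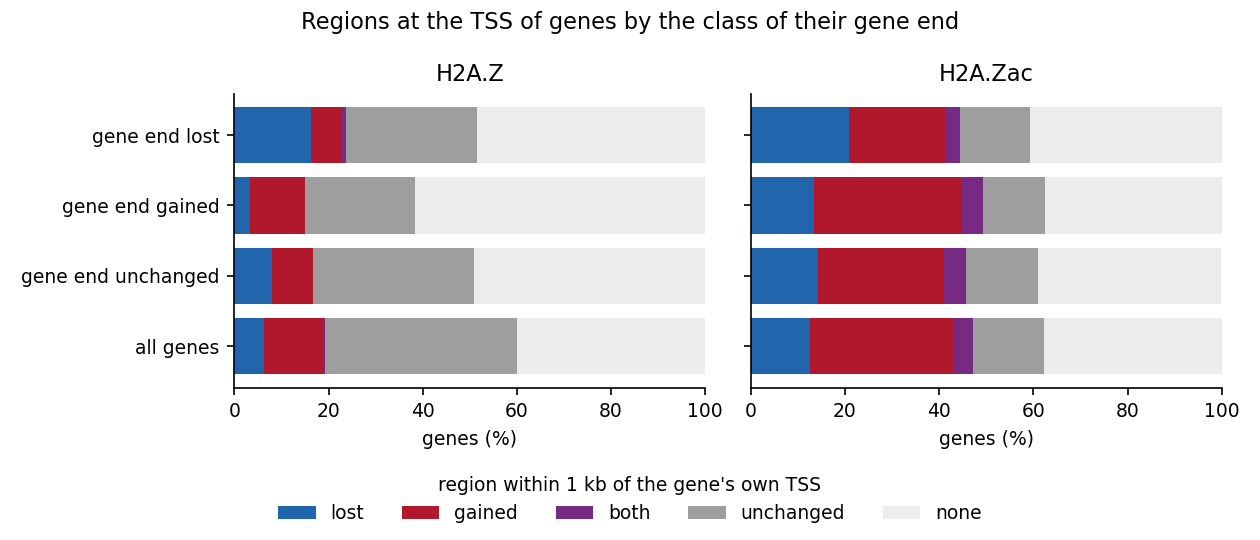
Class of the regions within 1 kb of the gene's own TSS, as a percentage of genes, by the class of the gene end. For H2A.Zac, lost TSSs make up 20.9% of genes whose end was lost and 13.5% of those whose end was gained, and 40.8% and 37.6% of these genes had no region at the TSS.

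The nearest TSS was seldom that of the gene itself. It belonged to the own gene in 543 of the 2010 regions, 27.0%, and otherwise to a neighbor, coding or not. Where that TSS had changed H2A.Zac regions of 1 direction within 1 kb, 165 of 246 changed gene-end regions shared it, 67.1% (61.0 to 72.6%), made up of 89 of 152 lost and 76 of 94 gained ones. The share was 73.9% (63.8 to 81.9%) at 2 to 5 kb from the TSS and 63.3% (45.5 to 78.1%) beyond 25 kb. For H2A.Z it was 44 of 54, 81.5% (69.2 to 89.6%), made up of 37 of 45 lost and 7 of 9 gained ones. Changed TSSs were mostly gained over all coding genes, 70.7% for H2A.Zac and 66.8% for H2A.Z, so a gained region can share their direction through that alone. The same share over the TSSs of all genes, or for other distal regions, was not counted.

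Several genes had a lost end and a gained TSS. TADA3, which encodes an adaptor of the SAGA acetyltransferase complex, had lost H2A.Zac regions of 932 bp across its end and 263 bp beyond it. At its TSS both marks had gained regions, beside unchanged ones of 770 bp (H2A.Z) and 1415 bp (H2A.Zac). TINAGL1, a secreted matrix protein gene, had a lost H2A.Zac region of 614 bp that ended 399 bp before its last base, in GC-rich DNA (69.9%), and both marks gained at the TSS. HPN, a liver serine protease gene, had lost H2A.Zac regions of 1419 and 491 bp to both sides of an unchanged one of 615 bp. At its TSS a gained H2A.Zac region of 924 bp adjoined an unchanged one of 509 bp. ADAMTSL5 was the fourth, with a gained H2A.Zac region of 369 bp at the TSS that lay inside an unchanged one.

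The reverse pattern was led by AKR1D1. Its end gained both marks, and an H2A.Zac region of 2581 bp at chr7:138002510-138005090, at its TSS, was lost. An unchanged H2A.Zac region of 1992 bp lay on the other side of that TSS. LIX1L had a gained H2A.Zac region of 1152 bp that began 71 bp past its end and a lost one of 291 bp at the TSS. The lost one overlapped an unchanged H2A.Zac region of 1471 bp. PTPRU, a receptor tyrosine phosphatase gene, had a gained H2A.Zac region of 1309 bp before its end and a lost one of 607 bp at its TSS, where an unchanged one of 339 bp overlapped it. The gene ENSG00000288681 had gained regions of 1517 and 3117 bp at its end on chromosome 11. The region of 3117 bp also lay at the end of IFITM1, an interferon-induced membrane protein gene that had both marks gained at its own TSS. Both regions lay within 2 kb of the start of at least 1 annotated transcript, as did the gene-end regions named here for PTPRU, ADAMTSL5, TINAGL1, HOXA5, HOXA9, PIM1 and JUNB. In all, 122 of the H2A.Z and 254 of the H2A.Zac gene-end regions lay within 2 kb of such a transcript start, which the rule, based on gene starts, did not remove.

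Wide unchanged regions also occurred at gene ends. EEFSEC, the gene of the selenocysteine elongation factor, had an unchanged H2A.Zac region of 5921 bp at chr3:128408581-128414501 that reached 5.86 kb past its end. CERS6, a ceramide synthase gene, had one of 4229 bp that lay almost wholly in the 3' UTR. PIM1, a kinase gene driven by STAT5, had one of 4222 bp across its end, with gained H2A.Zac regions at its TSS. The widest changed gene-end regions were a gained H2A.Zac region of 7737 bp at HPSE2 and a lost one of 7000 bp at GGTLC2, a member of the gamma-glutamyltransferase family, whose near-identical copies can share reads.

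Gene lists related to these cells had 0 to 3 members with a gene-end region, in shares on both sides of that over all coding genes. The lists were chosen with earlier results of these data known, and 5.54% of all coding genes had such a region, against 0 to 15.0% of these lists. Of 20 hematopoietic transcription factor genes, 3 had one (15.0%), and H2A.Zac was gained at all 3, where over all coding genes it was gained at 245 ends, lost at 444 and unchanged at 287. At SPI1, which encodes the myeloid factor PU.1, the gained region of 393 bp ended 91 bp before the last base, and an unchanged region of 510 bp lay directly beside it. At LYL1, a relative of TAL1, a gained region of 414 bp lay 544 bp past the end, next to an unchanged one of 409 bp and overlapping an unchanged one of 1577 bp that spanned the last base. At HHEX, a homeobox gene of blood and endothelial progenitors, a gained region of 1819 bp spanned the end. Gained H2A.Zac was also listed at the TSS of SPI1, LYL1 and HHEX. There too it lay beside unchanged H2A.Zac, and at SPI1 the gained 420 bp lay inside an unchanged region of 2676 bp. Among 29 erythroid and heme genes the only one (3.45%) was UROS, which encodes uroporphyrinogen III synthase of the heme pathway. It had a lost H2A.Zac region of 658 bp at 438 bp past its end. At its TSS both marks had gained regions, beside unchanged ones of 894 bp (H2A.Z) and 308 bp (H2A.Zac).

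Of 19 genes of BCR-ABL and STAT5 signaling, 2 had a gene-end region (10.5%). STAT5A had 2 gained H2A.Zac regions, of 448 and 1878 bp, with an unchanged one of 457 bp that overlapped the former and touched the latter, and PIM1 the unchanged one described above. MYCL was the 1 of 13 MYC network genes (7.69%), with a gained H2A.Zac region of 474 bp at 949 bp past its end. Its TSS had a lost H2A.Zac region of 287 bp that overlapped an unchanged one of 1264 bp. It also had a gained H2A.Z region of 490 bp inside an unchanged one of 2013 bp. JUNB (1 of 20 AP-1 and early response genes, 5.00%) and CDKN2C (1 of 24 cell cycle genes, 4.17%, a CDK inhibitor) had unchanged H2A.Zac regions at the end. No gene-end region was found at the 5 genes named or edited in the study, CCND1, TERT, DACH1, EP400 and PPP1R12C, of whose ends 3 lay over 2 kb from a TSS. None was found at 26 genes of EP400/TIP60 and SRCAP subunits and H2A.Z, at 24 genes of pre-mRNA 3' end processing and termination, or at 19 glycolysis genes, of which 17, 15 and 13 had ends over 2 kb from a TSS. Over all coding genes, 14705 of the 15774 such ends had none.

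Of 39 HOX genes, which set position along the body axis, 7 had a gene-end region (17.9%), although the ends of only 22 lay over 2 kb from a TSS. HOXC11 gained both marks past its end, with 396 bp of H2A.Z at chr12:53977964-53978359 and 1330 bp of H2A.Zac at chr12:53977801-53979130. HOXA5 and HOXA9 gained H2A.Zac, in regions of 1140 and 374 bp, and HOXC8 and HOXD13 had it unchanged. HOXA9 also had an unchanged H2A.Zac region of 530 bp and an unchanged H2A.Z region of 975 bp in its window. Over all coding genes H2A.Zac was lost at 444 ends, gained at 245 and unchanged at 287. HOXB1 and HOXB8 lost both marks, and at HOXB1 the lost H2A.Z region of 677 bp had a score of 23.8, the highest of any lost H2A.Z region at a gene end. That region began 438 bp past the last base of HOXB1, and an unchanged H2A.Z region of 471 bp spanned that base. Of 516 ZNF genes, 13 had a gene-end region (2.52%, against 5.54% of all coding genes), of which 6 lost H2A.Zac, 5 had it unchanged and ZNF438 gained it, in a region of 6983 bp.

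Motifs were counted in the central 200 bp of each region, on both strands. AGATAA was in 17.7% (10.2 to 29.0%) of gained and 4.98% (2.87 to 8.50%) of lost H2A.Z regions at gene ends, and in 15.4% (11.4 to 20.3%) and 8.13% (5.96 to 11.0%) of those of H2A.Zac. It was in 8.77% of all H2A.Z and 9458 of 94586 H2A.Zac regions. TGANTCA was in 12.9% (6.69 to 23.4%) of gained and 3.73% (1.98 to 6.94%) of lost H2A.Z regions, with overlapping intervals, and in 10.6% (7.41 to 15.0%) and 4.40% (2.86 to 6.69%) of those of H2A.Zac, against 5.74% and 6.50% of all regions. CACGTG went the other way in H2A.Zac, with 32 of 455 lost (7.03%, 5.03 to 9.76%) and 5 of 254 gained H2A.Zac regions (1.97%, 0.844 to 4.52%), against 4.01% of all H2A.Zac regions. In H2A.Z it was in 6.64% (4.13 to 10.5%) of lost and 3.23% (0.889 to 11.0%) of gained regions, with overlapping intervals. These contrasts were not particular to gene ends. In intergenic regions CACGTG was in 5.87% of lost and 1.67% of gained H2A.Zac regions, and AGATAA in 9.67% and 14.0%.

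The motif contrasts were also counted by base composition. Among H2A.Zac gene-end regions whose center had under 50% GC, AGATAA was in 18.1% (12.6 to 25.1%) of lost and 21.1% (14.9 to 29.0%) of gained ones, with overlapping intervals. At 50% GC or more it was in 3.54% (1.99 to 6.22%) and 9.52% (5.53 to 15.9%), and these intervals also overlapped. In H2A.Z regions it was in 13.3% (6.91 to 24.2%) of lost and 24.2% (12.8 to 41.0%) of gained ones under 50% GC and in 2.21% (0.863 to 5.54%) and 10.3% (3.58 to 26.4%) at 50% or more, with overlap in both bands. TGANTCA was in 9.03% (5.35 to 14.8%) of lost and 12.5% (7.84 to 19.3%) of gained H2A.Zac regions under 50% GC, and in 2.25% (1.09 to 4.57%) and 8.73% (4.94 to 15.0%) at 50% or more. In H2A.Z regions under 50% GC it was in 5.00% (1.71 to 13.7%) of lost and 9.09% (3.14 to 23.6%) of gained ones. At 50% GC or more it was in 6 of 181 lost (3.31%, 1.53 to 7.04%) and 5 of 29 gained H2A.Z regions (17.2%, 7.60 to 34.5%). These last intervals did not overlap. CACGTG, which is itself GC-rich, was in 9.97% (7.11 to 13.8%) of lost and 1.59% (0.436 to 5.60%) of gained H2A.Zac regions at 50% GC or more, and in 1 of 144 and 3 of 128 below. In H2A.Z regions at 50% GC or more it was in 15 of 181 lost (8.29%) and 2 of 29 gained ones (6.90%), with overlapping intervals. The GC box GGGCGG, the ETS motif CCGGAAG and the CTCF core motif were in 16.8%, 2.64% and 2.24% of H2A.Zac gene-end regions, near the 16.7%, 2.72% and 1.77% of all H2A.Zac regions. They were in 15.2%, 3.08% and 3.30% of lost and 13.8%, 1.57% and 1.18% of gained H2A.Zac gene-end regions, with overlapping intervals. In H2A.Z gene-end regions they were in 13.3%, 1.66% and 3.32% of lost and 14.5%, 0% and 0% of gained ones, also with overlap. A match to these letters is not evidence of a bound factor.

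The label of the cells could only be checked at TSSs. Of 10 erythroid markers, 8 had an H2A.Zac region within 1 kb of the TSS, among them KLF1, HBZ and TFRC, and GATA1 and ALAS2 had none. Of 10 lymphoid markers, 6 had one, including CD3E and EBF1, and those without one included MS4A1, PAX5 and CD8A. The presence of H2A.Zac therefore did not separate the cell types.

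The limits of the set were as follows. Windows at gene ends were overlapped by 5593 regions, of which 3583 were left out for a TSS within 2 kb. Just inside that limit, 133 members lay up to 2.5 kb from a TSS, and 165 regions left out lay between 1.5 and 2 kb. At the window's edge, 358 members lay between 0.75 and 1 kb from a gene end and 354 regions left out lay up to 250 bp outside the window.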

How the data were processed

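The authors deposited 6 region lists for H2A.Z and H2A.Zac, and no signal, count or replicate value was used here. Per the submitters' processing notes, Bowtie2 2.4.5, deepTools 3.5.1, MACS2 2.2.7.1 and bedtools 2.30.0 were used, with hg38. The authors merged the replicates, compared the lines with MACS2 bdgdiff at a log10 likelihood ratio cutoff of 3, and kept regions of which 25% or more lay in reproducible peaks (IDR cutoff 0.05). Which list is higher in which line was read from the order of the lines in the names of the lists. The score in each deposited list is the authors' log10 likelihood ratio.

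Regions were assigned with GENCODE 44, a later release than that of the study, using the starts and ends of gene records. Genes were named by a rule: per direction, the 8 with the highest H2A.Zac score and H2A.Z changed alike, 4 with an opposite TSS, the 4 widest unchanged, study genes and at most 4 per list. Chromosomes were singled out after their values were seen. Members and lists were chosen with earlier results of these data known. Python 3.11.15, numpy 2.4.6, pandas 2.3.3, scipy 1.17.1, pysam 0.24.0 and matplotlib 3.10.9 were used. Overlaps were checked against bedtools 2.31.1 (0 of 63442 covered lengths differed) and on simulated regions. Alternatives were other windows, annotations, score and width cutoffs, merging, base pairs and chromosomes. Input libraries were not analysed here, and some items chosen by the rule are not reported here.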

Additional observations from a re-analysis of the deposited data

How the results depend on the processing

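The 6 shares (gained and changed for each mark, H2A.Z covered by H2A.Zac, and own-TSS direction) were recomputed under 16 settings where these applied. Of 85 values, 75 stayed inside the interval of the reported share and 10 left it. The gained shares and the own-TSS shares stayed on their side of 50%, and the changed share of H2A.Zac fell below it with a score cutoff of 10. With a cutoff of 10 on the score, the log10 likelihood ratio, gained regions made up 32.3% of changed H2A.Z and 29.4% of changed H2A.Zac, and the changed share was 6.38% and 36.8%, the covered share 73.0% and the same-direction share 78.8%. With a cutoff of 5 the changed shares were 33.0% and 53.0%, fewer because only changed regions were removed. In regions of at least 500 bp 36.0% of H2A.Z regions changed, and 60.2% of H2A.Zac base pairs did. Under the other settings, including other windows, starts of all transcripts, ends of canonical transcripts and chromosomes 1 to 22, no value left its interval. No paired analysis was possible because the lists hold 1 comparison of merged replicates, and for the same reason no replicate could be left out. The causes of these shifts were not tested otherwise. Depth is unknown here and limits what a missing region means.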

Other observations

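Some gene ends held several regions. CELSR2, an adhesion receptor gene, and CFHR5, a complement factor H relative, had 7 each. CELSR2 had 2 gained and 3 unchanged H2A.Zac regions and 2 unchanged H2A.Z regions, and CFHR5 had 2 lost and 2 unchanged H2A.Zac regions with 1 lost and 2 unchanged H2A.Z regions. DENND2A had 3 lost H2A.Zac regions with 2 lost and 1 unchanged H2A.Z regions. CPA5, a carboxypeptidase gene, had 3 lost and 2 unchanged H2A.Z regions and 1 unchanged H2A.Zac region.

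Losses and gains lay within the same locus at 7 gene ends, those of PLEKHN1, HSPB7, C1orf226, IL10, ETV2, OR2V2 and FGD2. At IL10, an anti-inflammatory cytokine gene, a gained H2A.Z region of 262 bp (chr1:206766342-206766603) was followed by a lost H2A.Zac region of 906 bp (chr1:206766640-206767545). A lost H2A.Z region of 273 bp lay inside the latter and an unchanged one of 335 bp overlapped it, so H2A.Z itself went both ways. At ETV2, a factor of blood and endothelial development, a gained H2A.Zac region of 285 bp lay before lost ones of 398 and 856 bp. At OR2V2, an olfactory receptor gene, a lost H2A.Zac region of 325 bp and a gained one of 423 bp stood on both sides of an unchanged one of 864 bp, with no gap between them. These loci were picked by their values, and without replicate values none of these differences can be set against replicate error.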
